A study of Mus musculus with 20 samples.

Results

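The 9 genes described here are the oncostatin M receptor gene Osmr and 8 further genes of interleukin-6 (IL-6) family signalling, namely the ligand genes Osm, Lif and Il6, the receptor genes Il6st, Lifr and Il6ra, the transcription factor gene Stat3 and its feedback inhibitor gene Socs3. They are 9 of the 38947 genes in the deposited table, each represented by its transcript with the highest total over 20 libraries. Osmr was picked for its rise with letrozole, which is read here as letrozole against vehicle, so its values in those libraries are given as a description with no test. The other 8 genes were listed by their place in the pathway, with earlier results of these data known.

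The IL-6 family cytokines signal through receptor complexes that share gp130, the product of Il6st. Oncostatin M binds gp130 together with the oncostatin M receptor, and leukaemia inhibitory factor (LIF) uses the LIF receptor with gp130. Interleukin-6 first binds the receptor encoded by Il6ra. The complexes activate Janus kinases and STAT proteins, chiefly Stat3, and Stat3 induces Socs3, whose product binds gp130 and shuts the signal down; in the mammary gland the LIF and Stat3 branch is known for its role in involution.

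RNA was sequenced from 20 tumours of SSM3, a single oestrogen receptor-positive mouse mammary tumour line, grown in the mammary gland of immunocompetent 129S6/SvEv mice aged 2 to 4 months. Once tumours measured about 150 mm3, the letrozole + anti-PD-1 group was ovariectomised, given 1 mg/kg of the aromatase inhibitor letrozole under the skin each day for 25 days, and given 250 µg of anti-PD-1, an antibody that blocks the immune checkpoint receptor PD-1, on days 3, 5 and 7 after surgery. The letrozole group had the ovariectomy and letrozole without the antibody. Daily injections for 25 days and 5% ethanol were common to all 4 groups. The anti-PD-1 group had sham surgery, daily 5% ethanol in saline and the antibody, and the vehicle group had sham surgery and the ethanol solution, with 5 tumours in each of the 4 groups. Ovariectomy and letrozole were given together, so their effects cannot be told apart, and "letrozole" below stands for both.

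Depth over 1 transcript per gene ran between 12456356 and 31301954 reads, the lowest being replicate 1 of the anti-PD-1 group. Levels are normalised counts, that is, reads divided by a size factor per library, and differences are on the scale log2(normalised count + 1). Pgr, the progesterone receptor gene and a classical oestrogen target, served as the check of the letrozole label: it averaged 1235 ± 346 normalised counts with letrozole + anti-PD-1 and 13533 ± 4150.4 with anti-PD-1 (SD, n = 5 each), and 1370.0 ± 361 with letrozole and 15626 ± 2694 with vehicle. Replicate 3 of the vehicle group stood apart, with the highest summed fibroblast and macrophage markers of its group, 64118 and 13234 normalised counts. In a bulk tumour, fewer cells of a type and less RNA per cell cannot be told apart.

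The regions just before the start sites of 3 of the genes are shown, the 2 receptor genes whose letrozole differences are described first and the feedback inhibitor Socs3. Each is the 250 bases before the start in RefSeq (build GRCm38.p6), at chr15:6874314-6874563 on the minus strand for Osmr, chr13:112463820-112464069 on the plus strand for Il6st and chr11:117969367-117969616 on the minus strand for Socs3. Capitals mark a match to TTCNNNGAA, the motif recognised by STAT dimers.
Osmr: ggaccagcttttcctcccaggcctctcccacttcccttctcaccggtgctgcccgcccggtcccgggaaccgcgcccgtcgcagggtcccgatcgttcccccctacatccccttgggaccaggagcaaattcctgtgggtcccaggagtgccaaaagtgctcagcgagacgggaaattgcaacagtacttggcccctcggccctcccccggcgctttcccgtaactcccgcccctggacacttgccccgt
Il6st: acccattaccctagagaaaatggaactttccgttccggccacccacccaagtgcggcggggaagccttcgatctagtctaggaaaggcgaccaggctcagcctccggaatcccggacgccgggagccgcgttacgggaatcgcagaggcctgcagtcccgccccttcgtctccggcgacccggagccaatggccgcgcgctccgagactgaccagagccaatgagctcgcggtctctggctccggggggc
Socs3: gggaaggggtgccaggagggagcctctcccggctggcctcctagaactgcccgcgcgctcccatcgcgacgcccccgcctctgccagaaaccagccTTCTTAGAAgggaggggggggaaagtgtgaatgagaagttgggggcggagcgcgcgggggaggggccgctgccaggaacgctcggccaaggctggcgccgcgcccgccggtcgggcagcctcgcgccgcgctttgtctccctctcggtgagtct
The motif was searched on both strands, and Socs3 was the 1 gene of 8 matched by symbol to hold it, starting 154 bases before the start site. Of all 32851 promoter windows of this length, 7.02% held it, so a match describes the letters and nothing more. The half-site of the oestrogen response element, GGTCA on either strand, was present in the windows of Il6st and Lifr and in 35.2% of all windows.

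**Figure D1:**
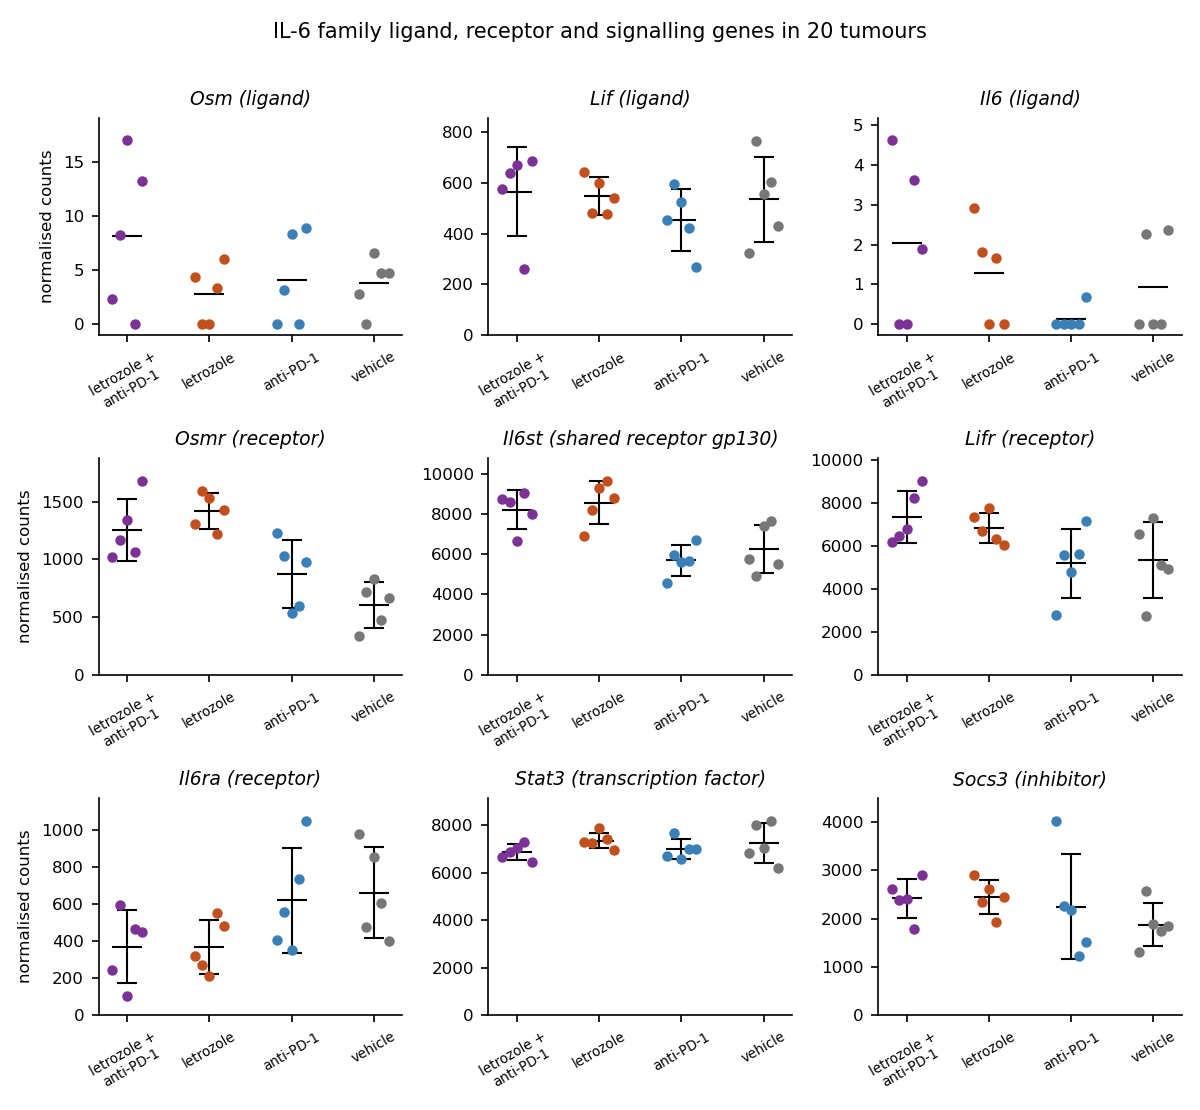
Normalised counts (vertical axes, linear) of the 9 genes in each of the 4 treatment groups; each point is 1 tumour, the wide bar is the group mean and the error bar its SD (no SD is drawn for Osm and Il6, which had few reads). Osmr and Il6st are higher in the groups with letrozole, Stat3 is level, and Osm and Il6 are close to 0 throughout.

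Among the ligand genes Osm and Il6 were close to undetected and Lif was measurable. Osm, the gene of oncostatin M, had 106 reads in all 20 libraries together and none in 6 of them. Its normalised counts were 2.32, 8.23, 17.0, 0 and 13.2 in the letrozole + anti-PD-1 tumours, against 0, 3.10, 8.28, 0 and 8.89 in the anti-PD-1 tumours. The letrozole tumours had 4.39, 0, 0, 3.33 and 6.04, against 2.75, 0, 6.55, 4.76 and 4.73 in the vehicle tumours. All 4 groups overlapped, and the highest single value rested on 22 reads. Il6, the interleukin-6 gene, had 25 reads in total, was at 0 in 11 libraries and did not exceed 4.64 normalised counts. A count of 0 allows up to 3 reads, which is 2.05 to 6.35 normalised counts depending on the library. These limits cover counting error only. Neither gene passed the filter of at least 10 in at least 5 libraries, so differences in Osm or Il6 were not tested.

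Lif, the gene of leukaemia inhibitory factor, was the ligand with a measurable level among the 9 genes. It had 576, 640, 671, 259 and 686 normalised counts with letrozole + anti-PD-1, against 453, 597, 527, 425 and 271 with anti-PD-1. Letrozole tumours had 646, 481, 600, 476 and 542, against 324, 766, 556, 604 and 432 with vehicle. The groups overlapped in both pairs. Averaged over the arms with and without antibody, the letrozole difference of Lif was 0.18 (95% interval -0.20 to 0.57, adjusted p = 0.590). Adjusted p-values throughout are from limma, with Benjamini-Hochberg adjustment over all 19844 genes tested.

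Osmr encodes the receptor chain that pairs with gp130 to bind oncostatin M. Its counts were 1022, 1164, 1338, 1060 and 1678 in the letrozole + anti-PD-1 tumours, against 1224, 1029, 536, 594 and 975 in the anti-PD-1 tumours. Of the 5 letrozole + anti-PD-1 tumours, 2 lay above every anti-PD-1 tumour, and the groups overlapped. Over all genes tested, 1.37% had every letrozole + anti-PD-1 tumour above every anti-PD-1 tumour. Whether these libraries also played a part in picking the gene is not recorded, and the members were chosen with earlier results of these data known, so the tests below are not independent support for a rise. The difference was 0.57 (95% interval 0.08 to 1.06), a 1.49-fold higher level with adjusted p = 0.282, and a two-sided exact permutation test with 5 tumours a side gave p = 0.0794, where the smallest possible is 0.00794. Neither test passed its threshold of 0.05. The anti-PD-1 group holds the shallowest library, replicate 1, and without it the difference was 0.71 and the exact permutation p 0.0317. The adjusted p was then 0.183. Leaving out any other single library of either group gave an exact permutation p between 0.0635 and 0.159.

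In the libraries that chose it, Osmr had 1304, 1594, 1535, 1219 and 1429 normalised counts with letrozole, against 338, 719, 828, 477 and 664 with vehicle. The lowest letrozole tumour lay above the highest vehicle tumour. The difference was 1.29 (95% interval 0.80 to 1.78), or 2.44-fold, which is given as a description; among all genes tested, 1.71% had every letrozole tumour above every vehicle tumour. By mean, the order over the 4 groups was letrozole with 1416 ± 156, letrozole + anti-PD-1 with 1253 ± 267, anti-PD-1 with 872 ± 296 and vehicle with 605 ± 196 normalised counts (SD, n = 5 each), and each group in this order overlapped the next.

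The 6 annotated Osmr transcripts, which share reads, had the same order of letrozole and vehicle means. The second most abundant, Osmr-204, averaged 1005 ± 250.1 normalised counts with letrozole + anti-PD-1 and 720.2 ± 241 with anti-PD-1, and 1150 ± 149 with letrozole and 495 ± 172 with vehicle. Osmr-205, a transcript with a retained intron, was the least abundant, at 111 ± 36.9 with letrozole + anti-PD-1 and 78.3 ± 19.4 with anti-PD-1. No exon base of the main Osmr transcript, ENSMUST00000022746 on chromosome 15, was shared with another annotated gene.

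Il6st, the gene of gp130, rose with letrozole when both arms were averaged. Its normalised counts were 8760, 8573, 6634, 9050 and 7986 with letrozole + anti-PD-1, against 4560, 5974, 5624, 5648 and 6697 with anti-PD-1. They were 6876, 8183, 9282, 9630 and 8805 with letrozole, against 5742, 4932, 7390, 7646 and 5524 with vehicle. In each pair 4 of 5 letrozole-treated tumours lay above every tumour without letrozole, and 1 overlapped. Averaged over both arms, Il6st rose by 0.50 (95% interval 0.30 to 0.69), that is 1.41-fold, with adjusted p = 0.00305.

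Within the single arms the Il6st difference was 0.53 (95% interval 0.25 to 0.80, adjusted p = 0.0565) for letrozole + anti-PD-1 against anti-PD-1 and 0.46 (0.19 to 0.74, adjusted p = 0.105) for letrozole against vehicle. Neither passed the threshold alone. The first did so in 7 of 34 other settings, namely without vehicle replicate 2 (adjusted p = 0.0470), vehicle replicate 3 (0.0459), anti-PD-1 replicate 5 (0.0437) or letrozole + anti-PD-1 replicate 3 (0.0412), with a minimum of 50 (0.0460), with quantile normalisation (0.0392) and with DESeq2 (0.0103). The second did so in 3, without vehicle replicate 3 (0.0354), without it and anti-PD-1 replicate 1 (0.0229) and with DESeq2 (0.0392). The difference between the arms was 0.06 (-0.33 to 0.45, adjusted p = 1.00). The averaged call held under all 33 other settings tried, with adjusted p up to 0.0239. That highest value came with the mean log2 level of the macrophage markers as a covariate, where the difference was 0.45. With that of the fibroblast markers as a covariate, the difference was 0.50.

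**Figure D2:**
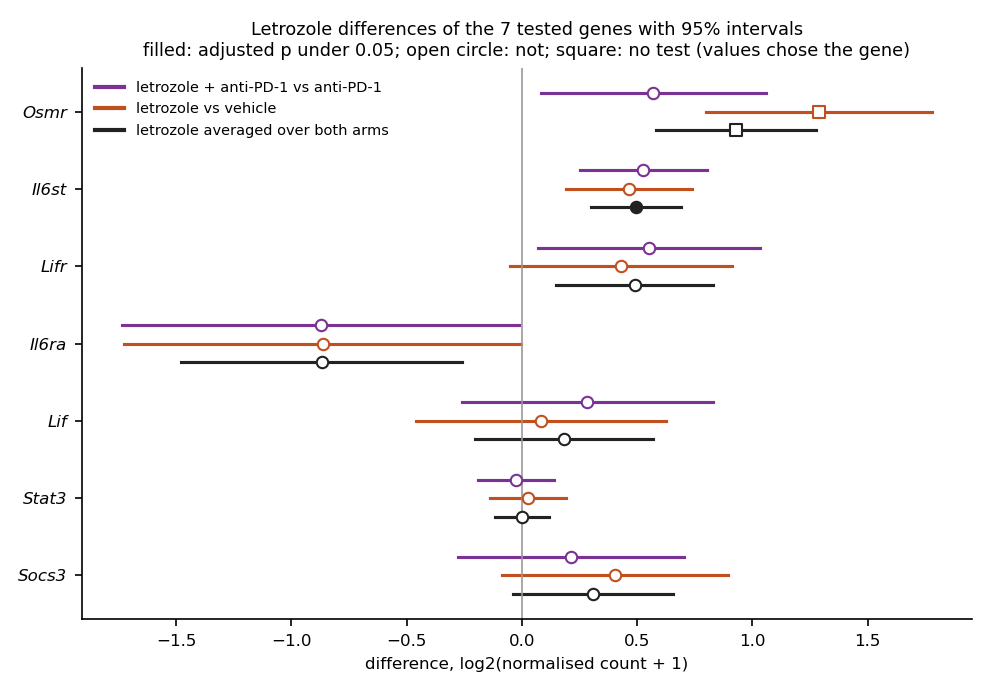
Letrozole differences in log2(normalised count + 1) (horizontal axis) for the 7 genes that passed the filter, with 95% intervals, for letrozole + anti-PD-1 against anti-PD-1, letrozole against vehicle and the average of both. The averaged difference of Il6st, 0.50, is the filled point; squares are Osmr values in libraries that chose the gene and carry no test.

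Lifr encodes the LIF receptor and lies beside Osmr in the RefSeq gene order on chromosome 15. It had 6189, 6475, 6792, 8242 and 9010 normalised counts with letrozole + anti-PD-1, against 2777, 5588, 4784, 5628 and 7167 with anti-PD-1. It had 7334, 6683, 7773, 6303 and 6042 with letrozole, against 6566, 2721, 7297, 5117 and 4918 with vehicle. In each pair 2 of the 5 letrozole-treated tumours lay above all tumours without letrozole. The averaged difference was 0.49 (95% interval 0.15 to 0.83, adjusted p = 0.0749), and the single-arm differences were 0.55 (adjusted p = 0.294) with antibody and 0.43 (adjusted p = 0.421) without. Lifr did not pass the test, though leaving out vehicle replicate 3 brought its averaged adjusted p to 0.0298, leaving out that library and anti-PD-1 replicate 1 to 0.0340 and leaving out anti-PD-1 replicate 5 to 0.0407.

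Il6ra, the gene of the interleukin-6-binding receptor chain, had lower means with letrozole. Its normalised counts were 240.0, 592, 99.8, 464 and 445 with letrozole + anti-PD-1, against 407, 553, 352, 734 and 1048 with anti-PD-1. They were 316, 271, 209, 553 and 479 with letrozole, against 978, 473, 851, 603 and 400 with vehicle. The groups overlapped in both pairs, and the spread within groups was the widest of the 7 tested genes, with a mean coefficient of variation of 44.0%. The averaged difference was -0.87 (95% interval -1.48 to -0.26) with adjusted p = 0.0773. It passed the threshold with DESeq2 on the recovered reads (adjusted p = 0.0238), with the fibroblast markers as a covariate (0.0387) and with the macrophage markers as a covariate (0.0322). In the annotation 2.80% of its exon bases are shared with Gm42809 on the other strand, and no label or processing note says whether strand was used in the counting.

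Stat3, the main transcription factor downstream of gp130, was the steadiest of the 9 genes. Its counts ran between 6465 and 7304 with letrozole + anti-PD-1, with a median of 6890, and between 6595 and 7662 with anti-PD-1, with a median of 6991. With letrozole they ran between 6968 and 7875, median 7321, and with vehicle between 6220 and 8192, median 7038. All groups overlapped. The averaged letrozole difference was 0.00 (95% interval -0.12 to 0.12, adjusted p = 0.992), which in fold terms runs from 0.923 to 1.09. The mean coefficient of variation within groups was 6.63%, against 24.7% for Osmr and 14.3% for Il6st. RNA levels do not measure phosphorylated Stat3. Of the Stat3 exon bases, 1.19% are shared with Stat5a on the other strand.

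Socs3, the Stat3-induced inhibitor of gp130, had 2612, 2387, 2411, 1777 and 2904 normalised counts with letrozole + anti-PD-1, against 4031, 2270, 2180, 1215 and 1523 with anti-PD-1. It had 2896, 2336, 2617, 1939 and 2444 with letrozole, against 1316, 2577, 1893, 1738 and 1857 with vehicle. The highest value of all, 4031, was in anti-PD-1 replicate 1, and both pairs overlapped. The averaged difference was 0.31 (95% interval -0.04 to 0.66, adjusted p = 0.277), and without vehicle replicate 3 and anti-PD-1 replicate 1 it was 0.44 with adjusted p = 0.0489.

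Counted together, 0 of the 7 tested genes passed the threshold for letrozole + anti-PD-1 against anti-PD-1, a comparison in which 1.07% of all genes did. For letrozole against vehicle, 0 of the 6 genes other than Osmr passed, where 0.957% of all genes did. Averaged over both arms, 1 of these 6, Il6st, passed, where 7% of all genes did, 3.29% upwards and 3.71% downwards. The 2 genes below the filter, Osm and Il6, are not among these counts.

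None of the 6 genes other than Osmr passed the threshold in either antibody comparison. For anti-PD-1 against vehicle the differences of these 6 genes lay between -0.23 for Lif and 0.17 for Socs3, and for letrozole + anti-PD-1 against letrozole between -0.14 for Il6ra and 0.10 for Lifr. Over all genes these comparisons made 0 calls with limma, where 539 and 627 genes had an unadjusted p under 0.05; edgeR also made 0 calls, and DESeq2 made 5 and 9. Osmr, whose letrozole and vehicle libraries chose it, had a difference of 0.52 (95% interval 0.03 to 1.01) for anti-PD-1 against vehicle and -0.19 (-0.68 to 0.29) for letrozole + anti-PD-1 against letrozole, both given without a test. Its letrozole difference was smaller by 0.72 with antibody than without (interval of this difference -1.41 to -0.02), again a description. These Osmr values use libraries in which the gene was picked for a high letrozole rise, so the choice itself favours such differences. Their intervals therefore cannot serve as tests.

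Per kilobase of transcript, the signalling genes and the shared receptor stood far above the ligands. Stat3 had the highest mean level, 1179 normalised counts per kilobase over the 20 tumours, followed by Socs3 with 880.1, Il6st with 827 and Lifr with 639. Osmr had 189 and Lif 139, and Il6ra had 58.3. Osm had 2.06 and Il6 0.467. The Osmr values rested on 22197 reads in all, and those of its ligand gene Osm on 106.

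**Figure D3:**
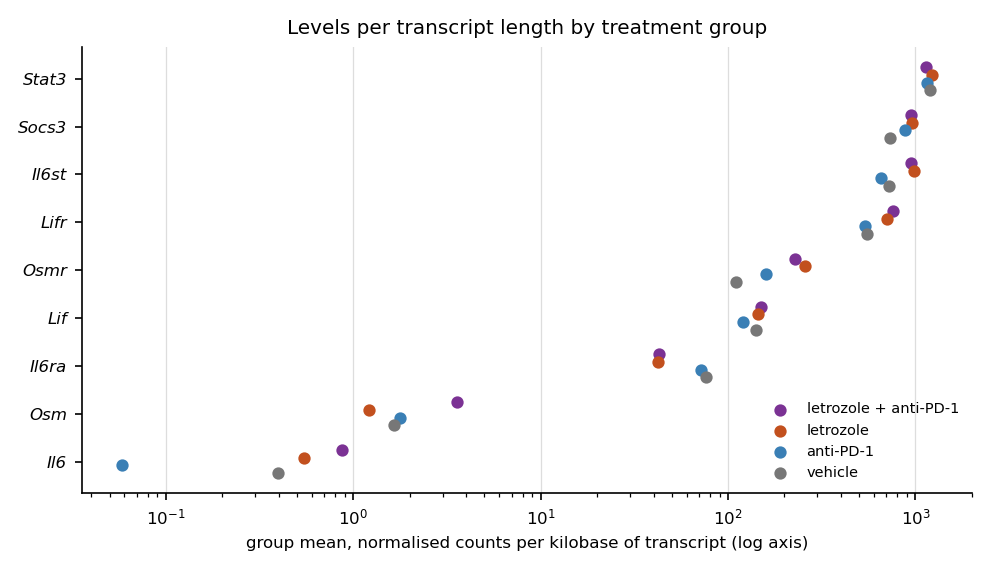
Mean level in each treatment group (points) in normalised counts per kilobase of transcript, on a log axis, for the 9 genes in order of level. Stat3 is highest at 1179 over all tumours, and the ligand genes Osm and Il6, which rest on 106 and 25 reads, are lowest.

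Marker RNA of non-tumour cells differed in level between libraries. The mean log2 level of 10 fibroblast markers was 9.36 ± 0.84 with letrozole + anti-PD-1 and 8.93 ± 1.24 with anti-PD-1, and 9.64 ± 0.85 with letrozole and 8.43 ± 1.87 with vehicle (SD, n = 5 each). Their summed counts ran between 11660 and 43791 with letrozole + anti-PD-1 and between 5724 and 40345 with anti-PD-1, and between 8967 and 71814 with letrozole and between 2475 and 64118 with vehicle. None of these 10 markers passed the test in the averaged comparison. The 9 macrophage markers had mean log2 levels of 8.77 ± 0.56 with letrozole + anti-PD-1 and 8.08 ± 0.86 with anti-PD-1, and of 8.82 ± 0.51 with letrozole and 7.91 ± 1.17 with vehicle, and 0 of the 9 passed. Their summed counts ran between 3674 and 8984 with letrozole + anti-PD-1 and between 1634 and 7185 with anti-PD-1, and between 3979 and 9264 with letrozole and between 1168 and 13234 with vehicle. With fibroblast markers as a covariate, the Osmr difference for letrozole + anti-PD-1 against anti-PD-1 was 0.52, and with macrophage markers it was 0.53, against 0.57 with neither.

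Neutrophils and macrophages are known sources of oncostatin M, and 7 of the 8 neutrophil markers had too few reads to pass the filter. The 1 that passed, Csf3r, a growth factor receptor gene of myeloid cells, had between 8.47 and 177 normalised counts, with a median of 68.3. Its letrozole difference was 1.49 with antibody (adjusted p = 0.339), 1.43 without (adjusted p = 0.352) and 1.46 on average (adjusted p = 0.0692), so it did not pass. Ly6g, Retnlg and Elane were at 0 in 19 of 20 libraries each; S100a8 and S100a9 did not exceed 38.6 and 62.5 normalised counts. The 8 luminal epithelial markers were abundant in all tumours, with mean log2 levels of 14.67 ± 0.08 with letrozole + anti-PD-1 and 14.52 ± 0.13 with anti-PD-1, and 14.72 ± 0.10 with letrozole and 14.49 ± 0.09 with vehicle. Of these 8, 2 rose on average, the adhesion gene Epcam by 0.52 (adjusted p = 0.00142) and the luminal transcription factor gene Gata3 by 0.45 (adjusted p = 0.0023). In that averaged comparison 3.29% of all genes tested rose.

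The other marker sets had higher median letrozole differences against vehicle than with antibody, a contrast between arms that was not tested for the sets, and none of their genes passed the averaged test. The 8 basal and myoepithelial markers had a median difference of 0.47 for letrozole + anti-PD-1 against anti-PD-1 and of 2.72 for letrozole against vehicle, where all 8 were above 0. Their summed counts ran between 769.7 and 2686 with letrozole + anti-PD-1 and between 375 and 2043 with anti-PD-1, and between 607 and 19361 with letrozole and between 241 and 2512 with vehicle. The 7 tested skeletal muscle markers had medians of 0.15 with antibody and 2.12 without, and the 7 adipocyte markers 0.07 and 1.73. The 7 tested T cell markers had medians of 1.06 and 1.20, and the 8 endothelial markers 0.31 and 0.39. Muscle marker RNA was high in single tumours. Its mean log2 level was 6.28, 5.98 and 5.95 in letrozole replicates 1, 4 and 5, and 1.98 and 1.79 in replicates 2 and 3. With letrozole + anti-PD-1 it was 7.11 in replicate 2, and the next highest was 2.19. It did not exceed 3.81 with anti-PD-1 or 2.33 with vehicle. The part of these cell types in the differences of Osmr, Il6st and the other genes was not tested.

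Of 46 other pathway genes listed by role, 43 were tested; Il27 and Il31ra fell below the filter and Il31 was not matched. Averaged over both arms, 2 rose and 4 fell with letrozole, where 3.29% of all genes rose and 3.71% fell, and their median difference was 0.22, beside 0.03 over all genes tested. For letrozole + anti-PD-1 against anti-PD-1, 0 rose and 3 fell, where 0.479% of all genes rose and 0.595% fell, with a median of 0.22. For letrozole against vehicle, 0 rose and 1 fell, where 0.408% of all genes rose and 0.549% fell, with a median of 0.20. None of the 43 passed for either antibody comparison. These counts moved with single libraries and settings: the averaged total of 6 was 3 with either marker covariate and without vehicle replicate 1 or anti-PD-1 replicate 4, and 12 without vehicle replicate 3 and anti-PD-1 replicate 1. The total of 3 with antibody was 0 without anti-PD-1 replicate 4 or letrozole + anti-PD-1 replicate 3, with no filter and with the 2 groups alone. It was 1 without letrozole + anti-PD-1 replicate 1 or 5 and with the macrophage covariate, and 5 with DESeq2. The total of 1 without antibody was 2 without vehicle replicate 3, anti-PD-1 replicate 4 or letrozole + anti-PD-1 replicate 3, with a minimum of 50, with median centring and with edgeR, and 5 with DESeq2 and without vehicle replicate 3 and anti-PD-1 replicate 1.

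None of the other IL-6 family ligands and receptors passed a test. The 6 tested ligand genes had averaged letrozole differences between 0.22 for Il11 and 0.79 for Cntf, with a median of 0.62. All 6 were above 0 with antibody, while against vehicle 4 were and Il11 and Ebi3 were at -0.34 and -0.01. Cntf, Ebi3 and Il11 were low and did not exceed 28.5, 35.6 and 44.05 normalised counts. In anti-PD-1 replicate 1, the shallowest library, they were at 0, 0 and 2.12, where 0 allows up to 6.35. The mean of Cntf was 14.02 with letrozole + anti-PD-1 and 14.19 with anti-PD-1, while those of Ebi3 and Il11 were higher with letrozole + anti-PD-1. The signs of these low genes with antibody therefore do not show a rise. Clcf1, whose product signals through the ciliary neurotrophic factor receptor, averaged 114 ± 44.1 normalised counts with letrozole + anti-PD-1 and 80.6 ± 40.03 with anti-PD-1, and 129 ± 30.1 with letrozole and 88.9 ± 41.6 with vehicle. Its averaged difference was 0.57 with adjusted p = 0.206. The 3 tested receptor genes, Il11ra1, Cntfr and Il27ra, had averaged differences of 0.68, -0.87 and 1.55 with adjusted p of 0.268, 0.403 and 0.207. The kinase gene Jak2 averaged between 13155 normalised counts with letrozole and 15670 with vehicle, and Jak1 between 3062 with anti-PD-1 and 3742 with letrozole.

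Among the 8 kinase, STAT and adapter genes, 2 fell in the averaged comparison, both Stat5 genes, where 3.71% of all genes fell. Stat5a, a transcription factor of prolactin signalling in mammary epithelium, had 813, 992, 771, 863 and 892 normalised counts with letrozole + anti-PD-1, against 1239, 1836, 917, 2017 and 1615 with anti-PD-1. It had 601, 804, 873, 1013 and 823 with letrozole, against 1580, 1501, 1410, 1721 and 1389 with vehicle. Every letrozole tumour lay below every vehicle tumour, which 1.96% of all genes showed, and with antibody 4 of 5 lay below. Stat5a fell by 0.90 against vehicle (adjusted p = 0.0108), by 0.76 in the antibody arm (adjusted p = 0.0323) and by 0.83 on average (adjusted p = 2.76e-04). The calls without antibody and on average held under every other setting, while the call with antibody was lost in 10 of 34, among them the omission of anti-PD-1 replicates 2, 4 or 5 or letrozole + anti-PD-1 replicates 1, 3, 4 or 5 (adjusted p 0.0531 to 0.110), and its highest adjusted p was 0.139 with the 2 groups alone.

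Stat5b, its close paralogue, averaged 1397 ± 59.8 normalised counts with letrozole + anti-PD-1 and 1849 ± 199.8 with anti-PD-1, and 1439 ± 95.4 with letrozole and 1823 ± 143 with vehicle. It fell by 0.40 in the antibody arm (adjusted p = 0.0242) and by 0.37 on average (adjusted p = 8.52e-04), and by 0.34 without antibody, where it missed the threshold (adjusted p = 0.0602). The call with antibody was lost without anti-PD-1 replicate 4 (0.0869) or letrozole + anti-PD-1 replicate 3 (0.0601), with no filter (0.0570) and with the 2 groups alone (0.139). In both pairs every letrozole-treated tumour lay below every tumour without letrozole, which 1.47% of all genes showed with antibody. Reads shared by the Stat5 genes may be split between them, since no label or processing note states how such reads were handled.

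None of the 5 other inhibitor genes passed. Their averaged differences lay between -0.11 for the phosphatase gene Ptpn2 and 0.96 for Socs1, a STAT-induced inhibitor like Socs3, with a median of 0.31. Cish, a Stat5-induced inhibitor, averaged 845 ± 180 normalised counts with letrozole + anti-PD-1 and 625 ± 107 with anti-PD-1, and 763 ± 26.5 with letrozole and 682 ± 52.5 with vehicle. Its averaged difference was 0.30 with adjusted p = 0.0596.

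Of 21 genes listed as Stat3 or oncostatin M targets, 2 rose and 2 fell on average, beside 3.29% and 3.71% of all genes tested, with a median of 0.08. Fos, an immediate early transcription factor, averaged 4278 ± 497 normalised counts with letrozole + anti-PD-1 and 3118 ± 783 with anti-PD-1, and 3921 ± 716 with letrozole and 3073 ± 573 with vehicle; it rose by 0.42 (adjusted p = 0.037). Cd14, a lipopolysaccharide co-receptor known as an involution gene, averaged 473 ± 105 with letrozole + anti-PD-1 and 367 ± 70.3 with anti-PD-1, and 597 ± 90.5 with letrozole and 391 ± 93.7 with vehicle; it rose by 0.49 (adjusted p = 0.0245). Fos lost its call in 17 of 33 other settings, 12 of them omissions of 1 library (adjusted p 0.0525 to 0.0735). Cd14 lost it in 6, among them the omission of vehicle replicate 1 (0.0519), anti-PD-1 replicate 4 (0.0514) or letrozole + anti-PD-1 replicate 5 (0.0529). Both were lost with either marker covariate.

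Myc, the growth-promoting transcription factor and an oestrogen as well as a Stat3 target, had 1981, 2223, 2853, 3364 and 2155 normalised counts with letrozole + anti-PD-1, against 5657, 3287, 3478, 6448 and 4141 with anti-PD-1. It had 2414, 3590, 1772, 2412 and 2421 with letrozole, against 5218, 3495, 3151, 4206 and 3645 with vehicle. In each pair 4 of 5 letrozole-treated tumours lay below all others. Myc fell by 0.75 on average (adjusted p = 0.00345) and by 0.85 in the antibody arm (adjusted p = 0.0468), the second a call lost in 21 of 34 other settings, with adjusted p up to 0.151 without anti-PD-1 replicate 4; the averaged call held in all 33. Bcl3, a nuclear cofactor of NF-kB, averaged 2520.3 ± 130.2 normalised counts with letrozole + anti-PD-1 and 3475 ± 629 with anti-PD-1, and 2685 ± 143 with letrozole and 3015 ± 487 with vehicle. It fell by 0.30 on average (adjusted p = 0.032), a call lost in 9 of 33 settings, 6 of them omissions of 1 library (adjusted p 0.0547 to 0.0665). Of the acute-phase target genes, Saa3, Lcn2 and Timp1 had averaged differences of 0.82, -0.08 and 1.11 with wide intervals and adjusted p between 0.384 and 0.966. Lbp, another of them, had the largest averaged difference of the 21 listed targets, 1.65, and did not pass. Its counts ran from 10.4 to 140 with letrozole + anti-PD-1 and 3.10 to 124 with anti-PD-1. They ran from 30.7 to 179 with letrozole and 2.38 to 157 with vehicle. Serpina3n did not pass either.

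**Figure D4:**
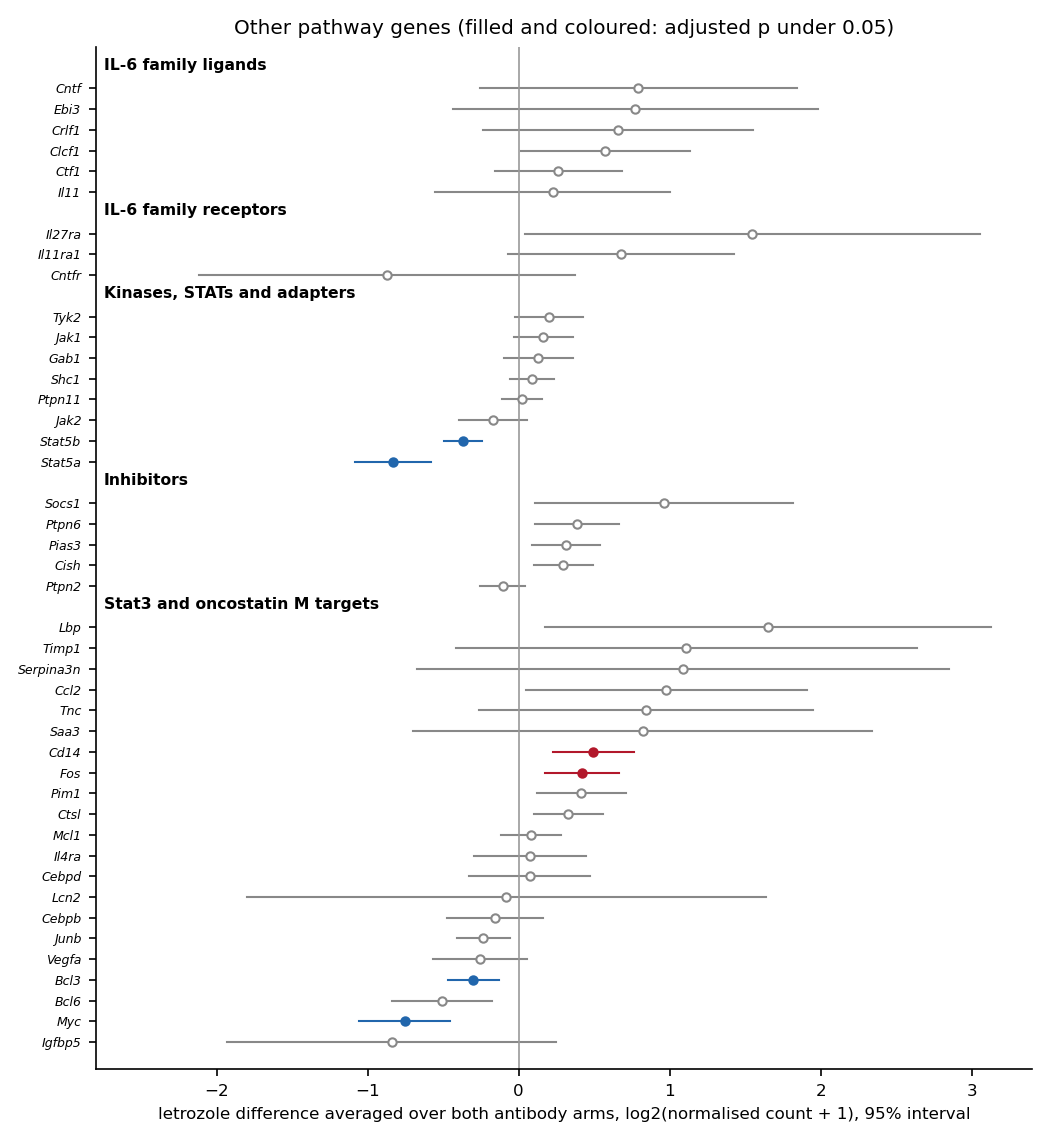
Letrozole differences averaged over both antibody arms, in log2(normalised count + 1) with 95% intervals (horizontal axis), for the 43 other pathway genes tested, grouped by role; red is higher and blue lower with adjusted p under 0.05, grey did not pass. Stat5a, Stat5b, Myc and Bcl3 fell, and Fos and Cd14 rose.

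The genes whose levels most resembled those of Osmr were listed over all 20 libraries, among 9169 genes above the median level. They were Pik3ip1 with Pearson r of 0.91, Mfge8 with 0.85, Fgfr1 and Ifi35 with 0.83 each and H2-D1 with 0.82; the points share the treatment groups, so these values are a description. On deviations from the group means the list was led by Pik3ip1 with 0.82, Flot1 with 0.78, Egflam and Rab4b with 0.76 each and Kctd11 with 0.75. Egflam lies next to Lifr in the gene order that also holds Osmr. Pik3ip1, which encodes an inhibitor of phosphatidylinositol 3-kinase, averaged 443 ± 68.6 normalised counts with letrozole + anti-PD-1 and 295 ± 143 with anti-PD-1, and 502 ± 133 with letrozole and 234 ± 107 with vehicle. Among the 6 other tested pathway members described above, the likeness to Osmr over 20 libraries ran between -0.49 for Il6ra and 0.66 for Socs3, and on deviations from group means between -0.18 for Lifr and 0.61 for Socs3.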

How the data were processed

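Libraries were made from total tumour RNA with an Illumina Swift Rapid kit, per the labels' protocols. Reads were processed with STAR 2.7.10a and DESeq2 on GRCm39 (mm39), per the submitters' processing notes, which name no counter, annotation or strand setting. The values deposited by the authors are a signal per transcript and library, namely read counts divided by a size factor; undoing the division gave whole numbers for 100% of values (tolerance 0.001), and edgeR and DESeq2 used these reads as alternatives only.

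Of 127442 transcripts, 118889 (93.3%) were named through GENCODE M21; 49 symbols shared by several genes were dropped, and the transcript with the highest total stands for each gene, since transcripts of a gene share reads. Genes with at least 10 in at least 5 libraries were fitted with limma 3.58.1 (trend, 4 group means, 20 libraries) on log2(value + 1), with Benjamini-Hochberg adjustment per comparison and a threshold of 0.05; a pseudocount of 1 understates changes of low genes. The alternatives used edgeR 4.0.16 and DESeq2 1.42.0 in R 4.3.3, and the fit was tested on simulated data. Labels call the 5 tumours of a group biological replicates. Named genes are the 9 members, Pgr, every listed pathway gene past the threshold in any comparison and the genes most like Osmr; other pathway genes given with values were chosen after their values were seen. Of the pathway genes listed, 1 is not reported here and is in no count. Members and lists were chosen with earlier results of these data known. Replicate numbers were not treated as pairs in the main fit, and 2 of 20 same-numbered pairs had deviations correlated above 0.1. Differently numbered pairs were not compared, so these values cannot show whether the numbers pair the samples. Promoters are from RefSeq, matched by symbol; no coordinates were converted between builds.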

Additional observations from a re-analysis of the deposited data

Results flagged for a closer look

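Lif in replicate 4 of the letrozole + anti-PD-1 group, at 259 normalised counts, lay far below the other 4 tumours of its group, which had between 576 and 686. This was 1 of 28 sets of a gene and a group examined, and chance flags about 1 in 20. Without that tumour the letrozole difference of Lif with antibody was 0.54.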

How the results depend on the processing

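The Il6st rise averaged over both arms kept its call under all 33 other settings, and Osmr for letrozole + anti-PD-1 against anti-PD-1 kept its direction and stayed above the threshold in limma under all 34 (0.41 to 0.71, adjusted p 0.141 to 0.510). In its exact permutation test, leaving out 1 library gave differences of 0.41 to 0.71 and p of 0.0317 to 0.159. Only the omission of anti-PD-1 replicate 1 gave a permutation p under 0.05. Counts of called genes depend on single libraries. Letrozole against vehicle gave 190 in all, and 85 to 814 with 1 library left out, the highest without vehicle replicate 3. The averaged comparison gave 1389, and 936 to 2336 with 1 library left out, the highest again without vehicle replicate 3. Leaving out vehicle replicate 3 and anti-PD-1 replicate 1 together gave 1131 for letrozole against vehicle and 2469 on average. Letrozole + anti-PD-1 against anti-PD-1 gave 213, and 72 without anti-PD-1 replicate 4 to 263. Letrozole + anti-PD-1 against letrozole gave 0 to 1. For letrozole + anti-PD-1 against anti-PD-1 the count was 110 with no filter, 521 with DESeq2, 140 with the macrophage covariate and 60 with the 2 groups alone. For letrozole against vehicle it was 126 with no filter, 622 with DESeq2, 103 with the fibroblast and 94 with the macrophage covariate, and centring each library on its median gave 40 higher and 99 lower beside 81 and 109. The averaged count was 837 with the fibroblast and 518 with the macrophage covariate. DESeq2 called 5 genes for anti-PD-1 against vehicle, 9 for letrozole + anti-PD-1 against letrozole and 4 for the difference between arms. The replicate block gave 236, 221 and 1391 calls for the antibody-arm, vehicle-arm and averaged letrozole comparisons and 1 for letrozole + anti-PD-1 against letrozole; Fos lost its averaged call under it, with adjusted p of 0.0515. The causes were not tested.

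Values near 0 changed sign without passing a test. For letrozole + anti-PD-1 against letrozole, Il6ra was 0.013 with edgeR and 0.014 with DESeq2, Lif 0.046 and 0.049, and Socs3 0.0019 with quantile normalisation and 0.0020 with median centring. The difference between arms for Il6ra was 0.020 with quantile normalisation, 0.049 with centring, 0.13 with edgeR, 0.12 with DESeq2, 0.029 with summed transcripts, 0.17 with the fibroblast and 0.084 with the macrophage covariate, and for Stat3 0.0062 with centring. Stat3 was 0.041 with quantile normalisation and 0.018 with the macrophage covariate for letrozole + anti-PD-1 against anti-PD-1, -0.043 with centring for letrozole against vehicle, and -0.040 with centring, -7.15e-04 with edgeR and -0.0057 with DESeq2 on average. The ranges that follow cover omissions of 1 library and the joint omission of vehicle replicate 3 and anti-PD-1 replicate 1. Anti-PD-1 against vehicle ran from -0.35 to 0.11 for Il6ra and -0.20 to 0.022 for Il6st. It ran from -0.25 to 0.32 for Lifr and -0.076 to 0.36 for Socs3. The upper ends for Il6ra, Il6st and Lifr came from the joint omission. Letrozole + anti-PD-1 against letrozole ran from -0.37 to 0.27 for Il6ra, -0.14 to 0.015 for Il6st, -0.11 to 0.24 for Lif and -0.10 to 0.084 for Socs3. The difference between arms ran from -0.24 to 0.40 for Il6ra, -0.081 to 0.14 for Il6st and -0.22 to 0.34 for Lifr. It ran from -0.38 to 0.053 for Socs3 and -0.097 to 0.0018 for Stat3. Here the lower ends for Il6st and Lifr came from the joint omission. Stat3 ran from -0.047 to 0.0087 in the antibody arm, -0.026 to 0.073 against vehicle and -0.025 to 0.024 on average, and Lif from -0.083 to 0.23 against vehicle. At this depth the median SE of a difference between 2 groups was 0.24.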
